A study of Mus musculus with 10 samples.

Results

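Of the 32293 regions in the deposited H3K4me3 table, 951 (2.94%) lay within 500 bp of a region in the deposited H3K4me1 table, measured from edge to edge in mm9 coordinates. These 951 regions, called border regions here, were chosen from the 2 tables by position, and no read count entered that step. How the regions of the tables had been called is unstated, so whether reads shaped the tables themselves is not known. ChIP-seq had been done on J1 mouse embryonic stem cells of a Dnmt TKO background, at passages 7 to 10, that expressed WWD, R or WT Dnmt3a2. The labels do not say what the WWD and R changes are, nor which promoter drove the constructs. FLAG-tagged Dnmt3a2 was precipitated with a FLAG antibody, and H3K4me3 was precipitated from line 1 of each construct. The labels list 2 Dnmt3a2 samples per construct, labelled 1 and bulk, but the tables hold 1 Dnmt3a2 column per construct, and its name does not show which of the 2 it stands for. Each construct thus had 1 Dnmt3a2 column and 1 H3K4me3 library, and every comparison below is without a replicate check and without a test. All intervals are 95% intervals over reads or regions and do not cover variation between cultures.

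Methylation of lysine 4 on histone H3 is graded along active genes. H3K4me3 peaks at promoters, H3K4me2 extends around them, and H3K4me1 marks enhancers and the outer flanks of promoters. Dnmt3a is a de novo DNA methyltransferase, and Dnmt3a2 is its shorter isoform, which is prominent in embryonic stem cells. Its ADD domain binds the H3 tail where lysine 4 is unmethylated, and methylation of that lysine weakens the binding. Dnmt TKO cells are a standard background without Dnmt1, Dnmt3a and Dnmt3b, so that the introduced protein is the Dnmt3a source. A region of the H3K4me3 table close to one of the H3K4me1 table allows Dnmt3a2 reads on both sides to be compared within the same column.

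The border regions were outlying pieces of the H3K4me3 landscape. Each region was 100 bp long, and none overlapped a region of the H3K4me1 table. The distance to the nearest H3K4me1 region ranged from 2 to 500 bp, with a median of 318 bp and quartiles of 212 and 420 bp. A single H3K4me1 region was in reach of 942 border regions, and 9 had 2 of them. In the other direction, 937 of the 24302 H3K4me1 regions (3.86%) had a border region in reach. The nearest other region of the H3K4me3 table was a median of 4975 bp away (3708 to 6324), against 678 bp for the remaining 31342 regions of the table (665 to 693). Another H3K4me3 region lay within 1000 bp of 35.8% of border regions (exact interval 32.7 to 38.9), against 57.3% of the remaining regions (56.8 to 57.9). Border regions thus stood alone more often than the rest of the table.

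A region of the H3K4me2 table lay within 500 bp of 427 border regions, or 44.9% (41.7 to 48.1), and of 47.0% of the remaining regions (46.5 to 47.6), so the intervals overlapped. Among the 427, the nearest H3K4me2 region sat between the border region and its H3K4me1 neighbour in 194 (45.4%), on the opposite side of the border region in 220 (51.5%), and beyond the H3K4me1 neighbour in 13 (3.04%). From centre to centre, the H3K4me2 region was a median of 201 bp away and the H3K4me1 region 434 bp away. Chromatin had been cut to between 160 and 480 bp, per the labels' protocols, a range that overlaps these distances. A single fragment could span a border region and its neighbour, so signal on the 2 sides was not fully separate.

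H3K4me3 was low at border regions in all 3 libraries. Levels are reads at a region scaled to 10000000 library reads. The median was 7.69 in WWD (6.54 to 8.84), 5.83 in R (4.74 to 7.66) and 9.04 in WT (7.45 to 10.1). In the remaining regions of the table the medians were 19.99 in WWD (19.6 to 20.4), 17.9 in R (17.5 to 18.2) and 22.9 in WT (22.3 to 22.9). The mean at border regions was 0.513 times that of the remaining regions in WWD, 0.512 times in R and 0.507 times in WT. By means the ratio thus lay within a narrow range over the 3 constructs. By medians it was 0.385 in WWD, 0.327 in R and 0.395 in WT, with R the lowest. The middle part of the border regions, between the quartiles, ran between 0.384 and 22.3 in WWD, 0 and 20.6 in R, and 2.13 and 22.9 in WT. A minority were strong, with maxima of 176, 259 and 203 in the WWD, R and WT libraries.

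When all regions were ranked by their mean H3K4me3 over the 3 libraries and divided into quintiles, 36.0% of border regions fell in the lowest quintile (32.9 to 39.1) and 6.20% in the highest (4.76 to 7.93). An even spread would put the same share in each. Regions beside H3K4me2 but not H3K4me1 leaned the other way, with 11.9% in the lowest quintile and 25.5% in the highest. Of the 951, 72 (7.57%, 5.97 to 9.44) held no H3K4me3 read in any of the 3 libraries, against 3.93% of the remaining regions (3.72 to 4.15). Regions beside neither mark came close, with 6.33% empty (5.96 to 6.71), inside the border interval, and they also leaned low, with 26.3% in the lowest quintile and 15.9% in the highest. For these 72 the name of the table was not matched by H3K4me3 reads in these cells. The H3K4me1 table has a column of H3K4me1 ChIP reads, but it matches no sample in the labels and was not used here, so the mark at the neighbouring regions was not examined.

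**Figure D1:**
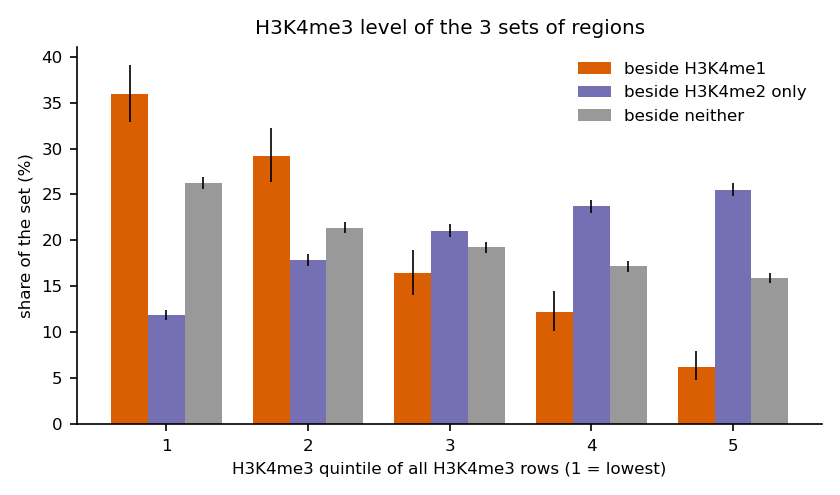
Share of each set of H3K4me3 table regions (y axis, %) in each quintile of H3K4me3 level (x axis, 1 lowest), with exact 95% intervals as error bars. The sets are the 951 border regions, regions beside H3K4me2 only and regions beside neither. Border regions fall from 36.0% in quintile 1 to 6.20% in quintile 5.

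H3K4me3 was lower the closer a border region lay to H3K4me1. In the 220 border regions at most 200 bp away, median H3K4me3 was 4.04 in WWD (1.54 to 5.77), 0.365 in R (0 to 3.28) and 5.05 in WT (3.72 to 6.38). In the 321 regions at 201 to 350 bp it was 8.46 in WWD, 4.74 in R and 7.45 in WT. In the 410 regions at 351 to 500 bp it was 10.4 in WWD (8.46 to 13.8), 10.03 in R (8.02 to 13.1) and 14.4 in WT (11.2 to 16.5). In all 3 libraries the intervals of the nearest and farthest of these bins did not overlap. The nearest bin also had H3K4me2 in reach less often, at 34.1% of regions (27.9 to 40.8), against 48.0% in the farthest (43.1 to 53.0). The part of each was not tested. Just outside the border set, the 811 regions at 501 to 750 bp had medians of 18.5 in WWD, 15.7 in R and 18.1 in WT. The rise went on to medians of 23.8 in WWD, 21.5 in R and 27.1 in WT at 1001 to 1500 bp. Beyond 20000 bp the medians were 19.2 in WWD, 17.1 in R and 21.3 in WT. The share without an H3K4me3 read moved the opposite way. Within 200 bp it was 34.5% in WWD, 43.6% in R and 25% in WT, and at 351 to 500 bp it was 17.1% in WWD, 22.2% in R and 11.5% in WT.

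**Figure D2:**
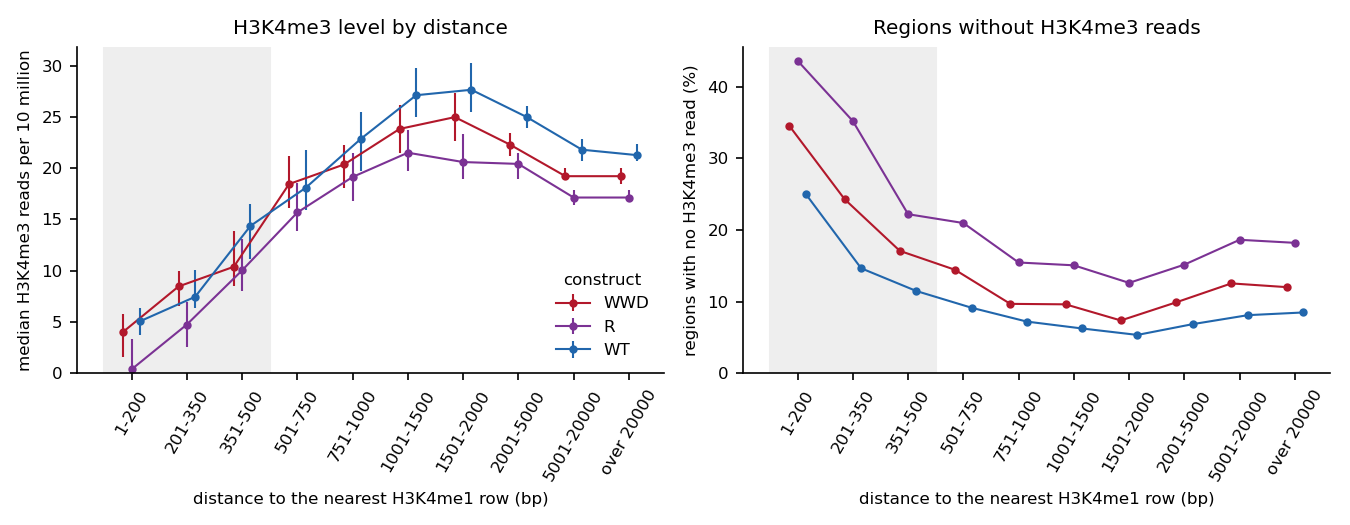
H3K4me3 of table regions by edge-to-edge distance to the nearest H3K4me1 region (x axis, bp), in WWD, R and WT. The left plot gives the median reads per 10000000 with exact 95% intervals and the right plot the percentage of regions without a read, with the 951 border regions in the shaded bins. Medians were lowest and empty regions most frequent within 200 bp in each library.

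Border regions with an H3K4me2 region in reach held more H3K4me3 than those without. The median of the 427 with one was 13.5 in WWD (10.4 to 16.1), 10.6 in R (8.39 to 12.8) and 13.8 in WT (12.2 to 16.5). The median of the 524 without one was 4.998 in WWD (4.23 to 6.15), 2.19 in R (0.729 to 4.38) and 5.85 in WT (4.79 to 6.91). The intervals of the 2 sets were apart in each library. Even the set with H3K4me2 stayed below regions beside H3K4me2 alone, whose medians were 26.5 in WWD, 24.1 in R and 30.3 in WT.

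Read numbers of single regions are given as counted, and the folds beside them allow for library totals, which were smallest in WT for H3K4me3. The 3 strongest border regions were all more than 400 bp from their H3K4me1 neighbour and had H3K4me2 in reach. Chromosome 17, 25023112 to 25023211, held 426 reads of H3K4me3 for WWD, 711 for R and 382 for WT. Chromosome 6, 83817136 to 83817235, held 457 in WWD, 211 in R and 297 in WT, an R to WT ratio of 0.487 (0.406 to 0.583). Chromosome 7, 29551320 to 29551419, held 253 in WWD, 449 in R and 251 in WT. Across these 3 strong regions Dnmt3a2 was nearly absent, with 1 read in R at the chromosome 17 region and 0 elsewhere. Such absence was frequent, since 54.7% of all border regions had no Dnmt3a2 read in any construct. For WWD the 3 do not stand for strong regions in general. Of the 59 border regions in the highest H3K4me3 quintile, 39.0% held a WWD read. Fewer held an R read, at 11.9% (4.91 to 22.9), or a WT read, at 6.78% (1.88 to 16.5).

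The next question was whether H3K4me3 at border regions differed between cells of the mutant constructs and WT. Ratios used a pseudocount of 3.72 reads per 10000000. At border regions the middle log2 ratio over WT was -0.05 in WWD (-0.17 to 0) and -0.19 in R (-0.29 to -0.10). Over all 32293 regions it was -0.13 in WWD and -0.25 in R. With each library centred on its own median, that is, after taking out the table-wide change of -0.13 in WWD and -0.27 in R, the border regions' medians became 0.077 in WWD and 0.074 in R. Relative to the table as a whole these medians were slightly above 0, but the table's own value lay inside the border interval in both mutants. A fixed pseudocount pulls the ratios of low regions towards 0, and border regions are low.

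Single border regions varied more. In WWD, 106 (11.1%, 9.22 to 13.3) were over 2-fold higher than WT, against 8.44% of all regions of the table, and 157 (16.5%, 14.2 to 19.0) were over 2-fold lower, against 15% of all regions. In R, 116 (12.2%, 10.2 to 14.4) were higher, against 9.06% of all regions, and 252 (26.5%, 23.7 to 29.4) were lower, against 24.1%. At this pseudocount the share of lower regions was near that of the table in both mutants, and the share of higher regions was above it, with intervals that did not include the table's value. Both readings depended on the setting. After centring, 125 border regions were higher in WWD (13.1%, against 10.4% of the remaining regions) and 135 lower (14.2%, against 12.2%). In R, 155 were then higher (16.3%, against 13.5%) and 198 lower (20.8%, against 17.9%), so the lower share also stood above that of the remaining regions. With the smallest pseudocount tried, the 1st percentile, the lower shares were 27.7% at border regions and 22.4% elsewhere in WWD, and 38.7% and 32.5% in R. With the median as pseudocount the order turned in WWD, where 0.210% of border regions and 0.533% of the remaining regions were higher, and 0.736% and 1.62% were lower. Rank agreement with WT across regions was also looser, with a Spearman's rho of 0.755 in WWD at border regions and 0.848 elsewhere, and 0.668 in R at border regions and 0.788 elsewhere. These are descriptions over regions that share libraries, and border regions held fewer reads.

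**Figure D3:**
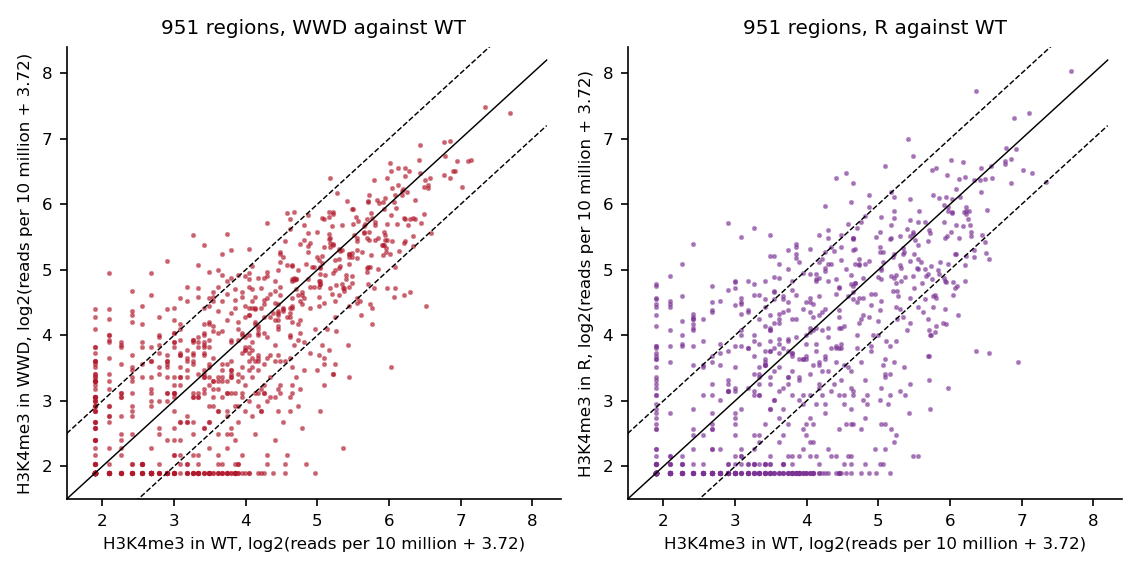
H3K4me3 of the 951 border regions in WWD (left, y axis) and R (right, y axis) against WT (x axis), as log2 of reads per 10000000 plus 3.72. The solid line marks equal levels and the dashed lines 2-fold differences. In WWD 106 regions lie above the upper dashed line and 157 under the lower one, and in R 116 and 252.

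Complete absence in a mutant was more frequent at border regions than elsewhere. Of the 802 border regions with an H3K4me3 read in WT, 130 had none in WWD (16.2%, 13.7 to 18.9) and 189 had none in R (23.6%, 20.7 to 26.7). In the remaining regions the shares were 7.34% in WWD (7.04 to 7.64) and 12.8% in R (12.4 to 13.2). The gap was smaller between regions with similar WT reads. Among regions with 1 to 5 WT reads, 50.8% of border regions and 50.8% of the remaining regions had none in R. With 6 to 20 WT reads the R shares were 35.6% at border regions (29.8 to 41.8) and 32.9% elsewhere (31.7 to 34.2). With 21 to 60 WT reads they were 14.2% at border regions (10.1 to 19.2) and 8.26% elsewhere (7.69 to 8.85), so the intervals were apart in that bin. In WWD, the bin of 6 to 20 WT reads gave 25.7% at border regions (20.5 to 31.4) and 19.8% elsewhere (18.8 to 20.9), with overlapping intervals. With more than 60 WT reads, 0 of 174 border regions were empty in either mutant, which allows up to 2.10% by the exact interval.

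The border regions with the largest H3K4me3 differences were picked by size, so their values are descriptions. At chromosome 19, 31188431 to 31188530, H3K4me3 reads numbered 71 in WWD, 36 in R and 1 in WT, a 51.3-fold WWD to WT ratio with a counting interval of 8.92 to 2055. For Dnmt3a2 the same region had 1 read in WWD, 11 in R and 0 in WT. Chromosome 2, 59887628 to 59887727, 21 bp from its H3K4me1 neighbour, had 71 reads for WWD, 47 for R and 5 for WT. Chromosome 4, 41707480 to 41707579, had 111 in WWD, 34 in R and 11 in WT. In these 3 regions both mutants were above WT.

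In the other direction, chromosome 11, 35814790 to 35814889, was empty of H3K4me3 in both mutants, with 0 reads for WWD, 0 for R and 52 for WT. With 3 reads taken as the floor of each library, it was at least 24.0-fold lower in WWD and at least 25.3-fold lower in R. Chromosome 9, 16306256 to 16306355, had 3 reads for WWD, 21 for R and 70 for WT. Chromosome 2, 150561534 to 150561633, had 1 in WWD, 13 in R and 47 in WT. These 3 regions were low in both mutants.

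Other border regions were picked for their R values. H3K4me3 at chromosome 6, 4886301 to 4886400, came to 24 reads for WWD, 105 for R and 3 for WT. Chromosome 2, 28334994 to 28335093, had 32 in WWD, 72 in R and 1 in WT. Both were thus above WT in WWD as well. Low values in R were found at chromosome 6, 100238130 to 100238229, with 49 reads for WWD, 2 for R and 81 for WT. Chromosome 1, 75121649 to 75121748, had 253 in WWD, 23 in R and 226 in WT, which puts R at 0.0698 times WT (0.0433 to 0.107). Chromosome 2, 17947755 to 17947854, had 63 in WWD, 2 in R and 77 in WT. In these last 3 regions R was far below WT, and WWD was below it by less, at 0.437, 0.809 and 0.591 times WT in that order.

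Dnmt3a2 signal at border regions was thin in each construct. Input was not analysed here, so these values compare columns and regions and do not show enrichment over background. The 951 regions together held 1049 reads for WWD, 617 for R and 496 for WT. Mean signal was 0.639 reads per 10000000 in WWD (0.601 to 0.679), 0.257 in R (0.237 to 0.278) and 0.217 in WT (0.198 to 0.237). A read was present at 293 regions in WWD (30.8%, 27.9 to 33.9), 123 in R (12.9%, 10.9 to 15.2) and 114 in WT (12.0%, 9.99 to 14.2). No read of any construct fell on 520 border regions, and 1 region had a read in all 3. The WWD column had the fewest total reads and the most occupied regions.

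Reads came in clumps rather than singly. Occupied border regions held 3.58 reads on average in WWD, 5.02 in R and 4.35 in WT. The 10 regions with most reads carried 10.7% of the WWD reads, 22.7% of the R reads and 24.8% of the WT reads. The counting intervals of sums and ratios treat reads as independent and are therefore too narrow, and shares of occupied regions are given beside them. Libraries had gone through 18 PCR cycles, per the labels' protocols, and the number of distinct fragments was not known.

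WWD was above WT at border regions by 2.94-fold in reads (2.64 to 3.28) and by 2.57-fold in the share of occupied regions. A read in WWD and none in WT was found at 251 border regions (26.4%, 23.6 to 29.3), against 22.3% of all regions of the table, and the reverse at 72 (7.57%, 5.97 to 9.44), against 6.74%. Restricting the count to the 98 border regions occupied in 2 or more columns lowered the ratio to 1.70, since that filter leaves out regions seen in 1 column. R was close to WT, at 1.18-fold in reads (1.05 to 1.33) and 1.08-fold in occupied regions. Its direction did not hold within 200 bp of H3K4me1, where the R to WT ratio was 0.913 (0.706 to 1.18). A read in R and none in WT was found at 107 border regions (11.3%, 9.31 to 13.4), against 8.56% of all regions, and the reverse at 98 (10.3%, 8.45 to 12.4), against 8.66%. WWD was above R by 2.49-fold (2.25 to 2.75). A read in WWD and none in R was found at 251 border regions (26.4%), against 22.3% of all regions, and the reverse at 81 (8.52%, 6.82 to 10.5), against 6.64%. For a read in WT and none in WWD, and for a read in WT and none in R, the table's value lay inside the interval of the border regions, and these shares are not a result about them.

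No difference in these ratios between border regions and the rest of the H3K4me3 table was detectable. The WWD to WT ratio at border regions was 1.05 times that at the remaining regions (0.943 to 1.18). The R to WT ratio was 1.11 times that elsewhere (0.984 to 1.26), and the WWD to R ratio 0.946 times (0.854 to 1.05). Each interval included 1, although it was computed as if reads were independent. By occupied regions, the WWD to WT ratio was 0.998 times that elsewhere.

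What differed was the overall Dnmt3a2 level. Border regions held 1.32 times the mean reads of the remaining regions in WWD (1.24 to 1.40), 1.40 times in R (1.29 to 1.51) and 1.25 times in WT (1.14 to 1.37). By occupied regions, the share was 30.8% at border regions and 25.3% elsewhere in WWD (24.8 to 25.8), and 12.9% at border regions and 9.69% elsewhere in R (9.37 to 10.03). In both, the intervals were apart. In WT the share was 12.0% at border regions (9.99 to 14.2) and 9.82% elsewhere (9.50 to 10.2), with overlapping intervals. The share at border regions was 1.22 times that elsewhere in WWD, 1.33 times in R and 1.22 times in WT. WT thus had a relative excess like that of WWD, on fewer occupied regions. The remaining regions were not uniform by distance to H3K4me1. At 501 to 750 bp the share was 24.3% in WWD (21.4 to 27.4), apart from the border interval. There it was 11.2% in R (9.13 to 13.6) and 10.4% in WT (8.35 to 12.7), with intervals overlapping the border ones. At 2001 to 5000 bp the WWD share was 28.5% (27.2 to 29.9), with overlap, and beyond 20000 bp 23.4% (22.7 to 24.2), without. Border regions were also lower in H3K4me3, and among the remaining regions mean Dnmt3a2 was highest in the lowest H3K4me3 quintile in each construct. With the remaining regions weighted to the H3K4me3 quintiles of the border regions, their share of occupied regions was 26.2% in WWD, 10.6% in R and 11.3% in WT. The WWD and R shares of border regions stayed above these values, beyond their own intervals, and the WT value lay inside the interval of the border regions. Weighted in the same way, regions beside neither mark alone gave 26.8% in WWD, 11.04% in R and 11.6% in WT, and the R value then also lay inside the border interval.

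Within the border set, mean WT Dnmt3a2 was lower at each higher H3K4me3 quintile, and WWD showed no such order. WT mean signal was 0.318 reads per 10000000 in the lowest H3K4me3 quintile (0.280 to 0.359), 0.189 in the second, 0.157 in the third, 0.126 in the fourth and 0.106 in the highest (0.0593 to 0.175). WWD signal was 0.723 in the lowest quintile (0.656 to 0.795), 0.524 in the third and 0.845 in the highest (0.676 to 1.04). R signal was 0.303 in the lowest (0.268 to 0.342) and 0.215 in the highest (0.147 to 0.303). In the remaining regions WT means also fell from 0.263 in the lowest quintile to 0.124 in the fourth, and were 0.135 in the highest. Their WWD means were 0.597 in the lowest, 0.414 in the third and 0.485 in the highest. There the highest quintile stayed below the lowest in WWD. At border regions it lay above the lowest, with overlapping intervals. At border regions the WWD to WT ratio was 2.28 in the lowest quintile (1.95 to 2.67) and 7.98 in the highest (4.58 to 14.9). In the remaining regions the ratio was 2.27 in the lowest quintile and 3.60 in the highest. The top value rests on 59 border regions, of which 23 held a WWD read and 4 a WT read, with 86 and 15 reads in all. The share of occupied border regions in the lowest and the highest quintile was 35.1% and 39.0% in WWD, and 15.2% (11.6 to 19.5) and 6.78% (1.88 to 16.5) in WT, so the WT shares overlapped in their intervals. Spearman's rho of Dnmt3a2 with H3K4me3 of the same construct across border regions was -0.05 in WWD, -0.04 in R and -0.12 in WT, too weak in such sparse counts to count as a finding.

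**Figure D4:**
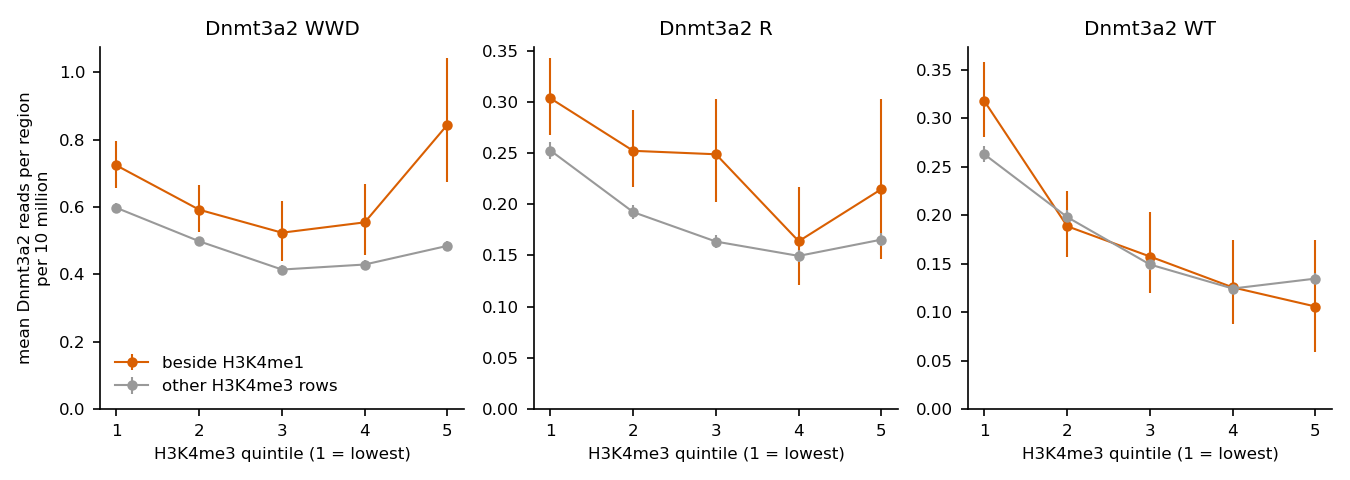
Mean Dnmt3a2 reads per region per 10000000 (y axis, a separate scale for each plot) by H3K4me3 quintile of the whole table (x axis) in WWD, R and WT, for border regions and the remaining H3K4me3 regions, with exact Poisson 95% intervals. In WT the border values run from 0.318 in quintile 1 to 0.106 in quintile 5, and in WWD from 0.723 to 0.845.

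Each border region could also be set against the H3K4me1 region at its side, read in the same Dnmt3a2 column. Dnmt3a2 was lower on the H3K4me3 side in each construct, by least in WWD and most in WT. Mean signal at border regions was 0.854 times that at the 937 neighbouring H3K4me1 regions in WWD (0.786 to 0.929), 0.805 times in R (0.723 to 0.897) and 0.600 times in WT (0.536 to 0.672). The neighbours averaged 0.748 reads per 10000000 in WWD, 0.319 in R and 0.362 in WT. In WT a read was present at 12.0% of border regions and 18.0% of their neighbours (15.6 to 20.7), with intervals apart. In WWD the shares were 30.8% of border regions and 36.8% of neighbours (33.7 to 40.0), and in R they were 12.9% and 17.0% (14.6 to 19.5), with overlapping intervals in both.

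The WWD to WT ratio at border regions was 1.42 times that at their H3K4me1 neighbours (1.24 to 1.64), where WWD was 2.07-fold above WT (1.89 to 2.26). For R over WT the ratio was 1.34 times that at the neighbours (1.15 to 1.57), where R was below WT, at 0.882 (0.798 to 0.975). The WWD to R ratio differed less, by 1.06 times (0.925 to 1.22). Pooled over all border regions, both mutants thus stood higher relative to WT on the H3K4me3 side than on the H3K4me1 side. By distance, the R to WT ratio at border regions was 0.913 within 200 bp (0.706 to 1.18). It was 1.04 at 201 to 350 bp (0.852 to 1.26) and 1.56 at 351 to 500 bp (1.28 to 1.90). Within 200 bp its interval included the pooled neighbour value of 0.882. The pooled order also held between the tables away from the border. There WWD was 2.80 times WT at the remaining H3K4me3 regions and 1.78 times at the remaining H3K4me1 regions, or 1.91 times with reads capped at 20 per region, and R was 1.06 and 0.881 times WT, so the order is not one of border pairs alone. By occupied regions the change was smaller. The share at border regions was 0.837 times that at neighbours in WWD, 0.762 times in R and 0.665 times in WT.

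**Figure D5:**
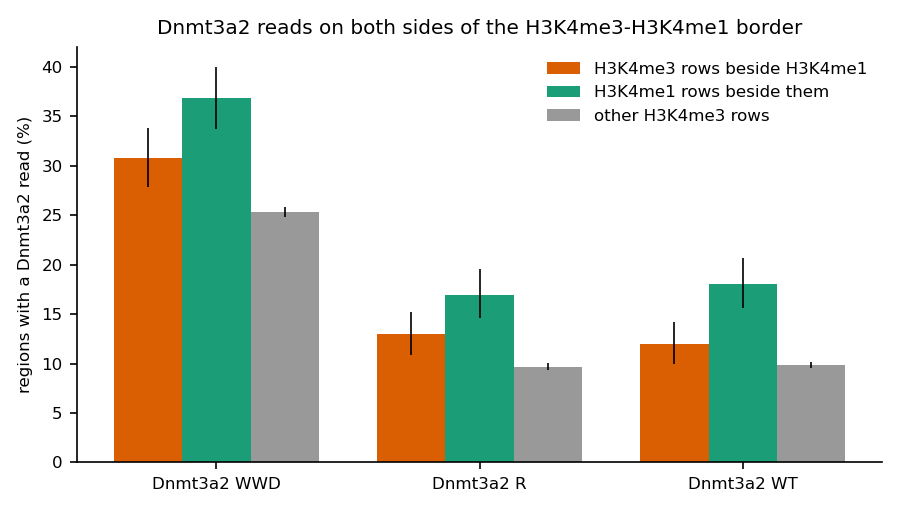
Percentage of regions with a Dnmt3a2 read (y axis) in the WWD, R and WT columns for the 951 border regions, the 937 H3K4me1 regions beside them and the remaining H3K4me3 regions, with exact 95% intervals as error bars. Border regions lie between the H3K4me1 regions and the remaining H3K4me3 regions in each construct.

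Pair by pair with the nearest neighbour, a read was found on the H3K4me3 side alone in 173 pairs and on the H3K4me1 side alone in 228 pairs in WWD, so that 43.1% of pairs with a single occupied side had the read on the H3K4me3 side (38.2 to 48.1). In R the counts were 93 and 133 pairs, or 41.2% (34.7 to 47.9). In WT they were 92 and 151 pairs, or 37.9% (31.7 to 44.3). All 3 intervals lay below 50%, and they overlapped each other, so no difference between constructs was detectable by this measure. Both sides were occupied in 120 pairs in WWD, 30 in R and 22 in WT.

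Over all pairs, the neighbour was occupied somewhat more often beside occupied border regions than beside empty ones, by least in WT. The neighbour was occupied beside 41.0% of border regions with a WWD read (35.3 to 46.8) and beside 34.7% of those without (31.0 to 38.4). In R the shares were 24.4% with a read (17.1 to 33.0) and 16.1% without (13.6 to 18.7), and in WT 19.3% (12.5 to 27.7) and 18.0% (15.5 to 20.8). The intervals overlapped in each construct. For border regions within 200 bp the WT order turned, at 9.52% with a read (1.17 to 30.4) and 14.6% without (9.98 to 20.3). That value rests on 21 occupied regions, and WWD and R kept their direction there. Reads of different constructs leaned towards the same border regions, also with overlapping intervals. A WT read was present at 14.3% of border regions with a WWD read (10.5 to 18.9) and at 10.9% of those without (8.66 to 13.6).

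Within the border set, nearness to H3K4me2 went with a larger mutant to WT ratio in reads. WWD exceeded WT 3.76-fold at the 427 border regions with H3K4me2 in reach (3.14 to 4.52) and 2.53-fold at the 524 without it (2.21 to 2.90), so the values differed 1.49-fold (1.18 to 1.87). By occupied regions the ratios were 3 with H3K4me2 and 2.33 without. R stood at 1.54 times WT with H3K4me2 (1.26 to 1.87) and 1.01 times without (0.863 to 1.17), though at 1.20 and 1.01 by occupied regions. WT signal was lower with H3K4me2, at 0.162 reads per 10000000 (0.138 to 0.188), than without, at 0.262 (0.235 to 0.292). WWD signal was 0.609 with H3K4me2 (0.554 to 0.668) and 0.663 without (0.611 to 0.719). In occupied regions the WT difference was within the intervals, with 9.60% with H3K4me2 (6.98 to 12.8) and 13.9% without (11.1 to 17.2). At border regions H3K4me3 was also higher where H3K4me2 was in reach, and the part of each was not tested. Among the remaining regions the same split changed the ratios little. WWD stood at 2.87 times WT beside H3K4me2 only (2.78 to 2.97) and 2.74 times beside neither (2.67 to 2.82). R stood at 1.07 and 1.06 times WT there.

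The border regions with the largest Dnmt3a2 differences, among those above the median H3K4me3 of the set, held at most 20 reads. Chromosome 2, 121121293 to 121121392, had 11 Dnmt3a2 reads for WWD, 0 for R and 0 for WT, at least 5.10-fold above WT against the floor of 3 reads. It lay 470 bp from its H3K4me1 neighbour, which held no read of any construct, and its H3K4me3 reads numbered 53 in WWD, 40 in R and 15 in WT. Chromosome 15, 88889829 to 88889928, had 10 reads for WWD, 0 for R and 0 for WT, while its H3K4me1 neighbour had the reverse, with 0 in WWD, 0 in R and 10 in WT. Chromosome 11, 62659141 to 62659240, also had 10 reads in WWD and 0 in R and WT.

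In the same upper part of the set by H3K4me3, the most WT reads against none in WWD were at chromosome 5, 114111601 to 114111700, with 0 in WWD, 0 in R and 12 in WT. This region lay 92 bp from its H3K4me1 neighbour, and its H3K4me3 was highest in WWD, with 112 reads, against 7 in R and 18 in WT. Chromosome 9, 106114569 to 106114668, had 0 in WWD, 0 in R and 11 in WT. Chromosome 3, 51200636 to 51200735, had 0 in WWD, 4 in R and 10 in WT. At chromosome 19, 29597860 to 29597959, the R column was the empty one, with 10 reads for WWD, 0 for R and 11 for WT.

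For R, the highest values were at chromosome 8, 80590239 to 80590338, and chromosome 17, 87557001 to 87557100, where R had 20 reads and WT 0 at each, at least 6.34-fold above WT. The chromosome 8 region had 0 reads in WWD and more H3K4me3 in R, with 91 reads, than in WT, with 14. The chromosome 17 region had 2 Dnmt3a2 reads in WWD and less H3K4me3 in R, with 4 reads, than in WT, with 63. Chromosome 6, 117821560 to 117821659, had 0 reads for WWD, 13 for R and 0 for WT. Large Dnmt3a2 values in R thus occurred both with more and with less H3K4me3. The border region occupied in all 3 columns, at chromosome 5, 92664857 to 92664956, had 4 reads for WWD, 2 for R and 4 for WT, and held no H3K4me3 read in any library.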

How the data were processed

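The authors deposited log2 values per region for each column, scaled to a common effective total, per the file headers. Bowtie and mm9 are named in the submitters' processing notes; region calling and read filters are unstated. The form of the entries is inferred from the values: each deposited log2 entry is read as log2 of 1 plus a factor times the sum of whole reads and a random fraction of a read, rounded to 2 decimals. Whole reads were taken by inverting it. Simulated tables built with that form tested the loss by rounding, not the form itself. There a few values came back 1 read off, and up to 0.947% of the 0 values of a column gained a read. This bears on shares of occupied regions, above all on differences as small as that between R and WT at border regions. Column totals were 17259400 (WWD), 25254320 (R) and 24015095 (WT) for Dnmt3a2, and 26012284 (WWD), 27424019 (R) and 18801269 (WT) for H3K4me3. The 2 columns that match no listed sample (H3K4me1 and H3K4me2 ChIP) stayed out, and input was not analysed here, so values include background.

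Neighbours were found by bedtools 2.31.1 (window of 500 bp). Shares have exact Clopper-Pearson intervals, medians exact order-statistic intervals, summed reads exact Poisson intervals, and ratios exact conditional intervals, computed with scipy 1.17.1 in Python 3.11.15. They cover counting error only. H3K4me3 ratios used the 10th percentile of positive values as pseudocount. Regions carry no gene names and are given by coordinates. Named regions are the 3 with the largest log2 ratio each way per contrast with WT among border regions above the set's median H3K4me3, up to 5 with most Dnmt3a2 reads in all columns, and the 3 highest in H3K4me3; not all are printed. The regions, lists and rules were chosen with earlier results of these data known.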

Additional observations from a re-analysis of the deposited data

How the results depend on the processing

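The 15 results were recomputed 87 times in all, and 43 of these values lay inside the reported interval or, for counts, within a factor of 1.5. No paired analysis was possible because every construct has a single column per assay, and for the same reason no replicate was left out. For the ratios between constructs, the share of occupied regions and the exclusion of top regions were chosen after seeing the data. Where none is named, the cause was not tested.

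Keeping regions with a Dnmt3a2 read in at least 2 of 3 columns, a filter that by its construction drops regions seen in 1 column, gave 1.70 for WWD to WT, 1.03 for R to WT and 1.65 for WWD to R. Relative to the remaining regions it gave 0.922 for R to WT and 1.08 for WWD to R. Border regions within 200 bp (220 regions) gave an R to WT ratio of 0.913, which turned its direction, and a WWD to R ratio of 3.02. Relative to other regions these were 0.854 and 1.15. WWD to WT was 2.57 by occupied regions and 3.59 without the 10 regions with most reads in either column, and WWD to R was 2.85 without them. No border region exceeded the cap of 20 reads, so that setting could not move these ratios.

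The median H3K4me3 log2 ratio became 0.077 in WWD and 0.074 in R with centred libraries, a turn of direction in R, and -0.23 and -0.41 with deposited values. R gave -0.30 when the pseudocount was the 1st percentile, -0.061 when it was the median, -0.31 for regions read in at least 2 libraries and -0.069 within 200 bp. For WWD, 160 regions were over 2-fold higher and 263 lower under the 1st percentile, 2 and 7 under the median, 30 and 31 within 200 bp, and 261 and 408 within 1000 bp; deposited values gave 248 lower. As shares, the 1st percentile gave 16.8% higher and 27.7% lower, against 12.6% and 22.4% of the remaining regions, and the median 0.210% and 0.736%, against 0.533% and 1.62%. For R, 14 were higher and 31 lower under the median (1.47% and 3.26%, against 1.06% and 4.65% of the remaining regions), 25 and 53 within 200 bp, and 281 and 635 within 1000 bp. Ratios shrink by construction as the pseudocount grows, and the distance sets how many regions are counted. H3K4me3 over that of the remaining regions was 0.385 in WWD, 0.327 in R and 0.395 in WT by medians, 0.310, 0.293 and 0.279 within 200 bp, and 0.810, 0.810 and 0.802 within 1000 bp.

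Most border regions held no Dnmt3a2 read in any single column, which limits what can be said of single regions.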

Other observations

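Border regions were scarce on chromosome X, where 11 of 1012 H3K4me3 regions qualified (1.09%, exact interval 0.544 to 1.94), against 2.94% over the table. The chromosome held 3.13% of H3K4me3 regions and 0.885% of H3K4me1 regions. The highest share was on chromosome 5, at 3.76% (2.99 to 4.65). No region of the H3K4me3 table overlapped a region of the H3K4me1 or the H3K4me2 table, although some lay as close as 2 bp to an H3K4me1 region. Within the border set, the WWD to WT ratio of Dnmt3a2 was 2.76 at up to 200 bp from H3K4me1 (2.22 to 3.45), 2.57 at 201 to 350 bp (2.16 to 3.06) and 3.52 at 351 to 500 bp (2.94 to 4.24).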
